A study of Rattus norvegicus with 18 samples.

Results

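Nalcn encodes a sodium leak channel, the pore of a complex that lets a small steady sodium current into the cell. It was chosen by its measured pattern in these same arrays, a lower signal after 12 hours and 1 day on the peptide and a signal among the controls after 3 and 5 days, so its levels are given here as a description with no test. Every probe set that the platform annotation pairs with the symbol Nalcn was taken. This gave 2 probe sets of 1 gene, AF078779_at and AF078779_g_at, of 1322 probe sets in all, and 1 of 720 genes that the annotation names with a single symbol. Both carry the accession AF078779 in their names, so they read the same transcript and are not independent measurements.

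The series holds 18 arrays of rat type-I astrocytes from the cerebral cortex, the star-shaped support cells of the brain, grown in culture. Each of 4 groups of 3 arrays measured total RNA of astrocytes grown on an immobilized peptide, the 25 to 35 residue fragment of beta-amyloid, for 12 hours, 1 day, 3 days or 5 days. The 6 control arrays measured astrocytes grown on laminin and nitrocellulose without the peptide. No time in culture is given for the controls, and the labels of controls 1 and 2 name the cortex rather than type-I astrocytes as the source. The labels do not say whether arrays of a group came from separate cultures, so the spread between them may be technical.

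NALCN is a 4-domain pore protein related to the voltage-gated sodium and calcium channels. Unlike them, it carries a current near the resting potential, and it is known mainly from neurons, where it brings the membrane closer to firing. It works with the large partner proteins UNC79 and UNC80 and with NALF1 (FAM155A). Muscarinic and peptide receptors acting through Src family kinases, the calcium-sensing receptor and GABA-B receptors are known to change its current in neurons.

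The values are the deposited linear intensities, called signals here, and the table was already scaled: the mean after trimming 2% of values at each end was 502.1 to 502.6 on every array. Values under a floor of 11.3, the 10th percentile of the 1263 probe sets that are not array controls, were set to it before log2 was taken. Both Nalcn probe sets were among the 1027 that passed a filter of a signal over 44.9 on at least 3 arrays. By the correlation of whole profiles the arrays fell into 2 clusters that follow the groups only in part. Cluster 1 held 7 arrays, namely all 3 at 12 hours, array 3 at 1 day, array 3 at 3 days, and controls 1 and 2. The other 11 arrays, among them all 3 at 5 days, formed cluster 2. Control 1 correlated at 0.966 to 0.97 with the 12 hours arrays and at 0.793 to 0.923 with the other controls, so it lay closer to the exposed arrays than to its own group. Each Nalcn difference is therefore also given without controls 1 and 2 and within these 2 clusters. At 12 hours the comparison within clusters has only controls 1 and 2. Every SE of a Nalcn difference, also for a subset or 1 array, takes its spread from the fit of all 18 arrays in 5 groups. It is thus not the spread within that subset or cluster.

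Nalcn signal was lowest at 12 hours on the peptide. On AF078779_at the 3 arrays at 12 hours had signals of 50.6, 24.5 and 22, against 73.8, 160.8, 145.6, 263.5, 170.9 and 173.2 in controls 1 to 6. Every array at 12 hours lay below every control. The means were 32.4 ± 15.8 at 12 hours and 165 ± 60.9 in the controls (SD, n = 3 and n = 6). The log2 difference, 12 hours minus control, was -2.36 ± 0.50 (SE from the limma fit of all 18 arrays, 13 residual degrees of freedom), a signal 5.12-fold lower. In cultures measured in bulk, fewer cells with the transcript and less transcript per cell cannot be told apart.

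AF078779_g_at gave a difference in the same direction. Its signals at 12 hours were 7.6, 10.1 and 6.8, against 41.8, 96.8, 106.9, 135.9, 104.2 and 120.6 in controls 1 to 6. All 3 values at 12 hours were under the floor, so the difference is a bound: at least 8.41-fold lower, or a log2 difference of -3.07 ± 0.40 on the floored scale. Within each array, these 3 values ranked at the 6.93 to 10.5 percentile of all probe sets, against 29.3 to 52.3 in the controls. The AF078779_at signal ranked at the 20.1 to 34.8 percentile at 12 hours and at 41.3 to 66.3 in the controls.

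At 1 day the arrays of the group differed from each other. On AF078779_at their signals were 18.9, 62.2 and 135.8, a mean of 72.3 ± 59.1 (SD, n = 3), against 165 ± 60.9 in the controls. Arrays 1 and 2 lay below every control, while array 3 lay within the control range. The log2 difference was -1.51 ± 0.50, or 2.84-fold lower. Without array 1 it was -0.75, and without array 3 it was -2.17.

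On AF078779_g_at the signals at 1 day were 14.8, 11.8 and 37.8, all below the lowest control, 41.8. Array 3 was again the highest of the 3. The mean was 21.5 ± 14.2 at 1 day and 101 ± 32.2 in the controls, with a log2 difference of -2.34 ± 0.40, or 5.07-fold lower. The coefficient of variation of the AF078779_at signal was 81.7% at 1 day, above the 16.2% to 48.9% of the other 4 groups.

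At 3 days and 5 days Nalcn lay among the controls on both probe sets. The signals of AF078779_at were 142.6, 180.1 and 133.8 at 3 days and 249.3, 130.5 and 132.2 at 5 days, all within the control range of 73.8 to 263.5. The log2 differences from the controls were -0.03 ± 0.50 at 3 days and 0.08 ± 0.50 at 5 days. On AF078779_g_at the signals were 149.6, 129.7 and 79.1 at 3 days and 120, 61.4 and 58.7 at 5 days. These overlapped the control range of 41.8 to 135.9, with log2 differences of 0.28 ± 0.40 at 3 days and -0.33 ± 0.40 at 5 days. The standard errors are larger than these 4 values. The SE is not the limit of what could be seen. With 3 arrays, changes in either direction of about the SE, and some larger ones, could not be told from no change.

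**Figure D1:**
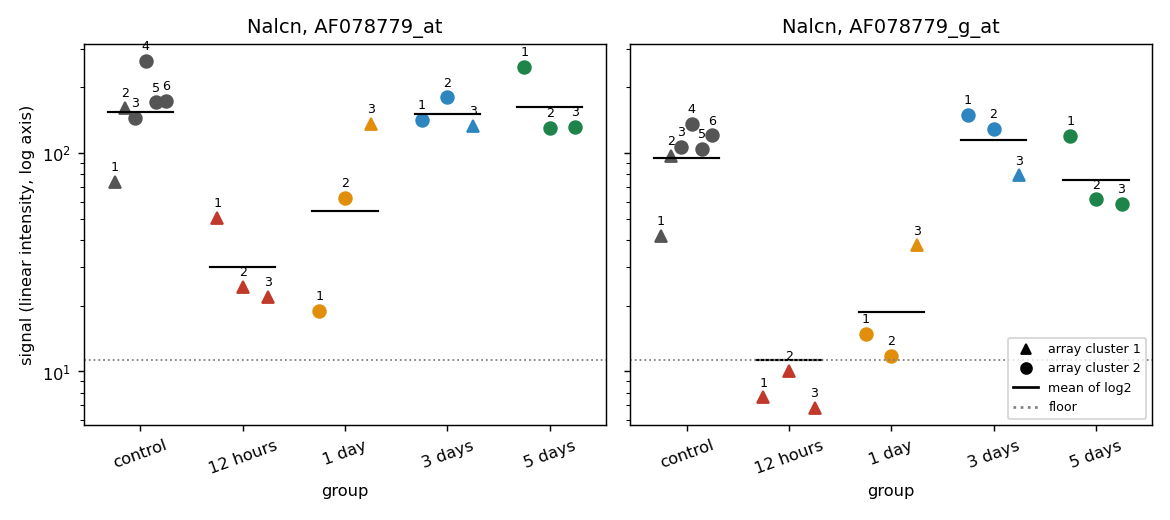
Signal of both Nalcn probe sets on every array (log axis, 1 point per array with its replicate number), with triangles for array cluster 1, circles for cluster 2, a bar at the mean of log2 signal and a dotted line at the floor of 11.3. The 12 hours arrays sit below every control on both probe sets, and the 3 days and 5 days arrays overlap the controls.

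The order of the group means was 12 hours, 1 day, 3 days, control and 5 days on AF078779_at, with means of 32.4, 72.3, 152, 165 and 171. On AF078779_g_at it was 12 hours, 1 day, 5 days, control and 3 days, with means of 8.17, 21.5, 80, 101 and 119. In both orders the ranges of 3 days, 5 days and control overlapped, so these 3 groups had no settled order. The step between 12 hours and 1 day was 0.85 ± 0.58 on AF078779_at (1 day minus 12 hours), where the ranges overlapped. On AF078779_g_at the 2 ranges did not overlap, 11.8 to 37.8 at 1 day and 6.8 to 10.1 at 12 hours, and the 1 day signal was at least 1.66-fold higher. The step between 1 day and 3 days was the largest between neighbouring times on both probe sets, 1.48 ± 0.58 on AF078779_at and 2.62 ± 0.46 on AF078779_g_at (3 days minus 1 day). Only on AF078779_g_at did the ranges of 3 days and 1 day not overlap. The 5 days arrays differed from the 3 days arrays by 0.11 ± 0.58 on AF078779_at and -0.61 ± 0.46 on AF078779_g_at, with overlapping ranges on both.

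Controls 1 and 2 carried lower Nalcn than the other 4 controls on average. Their mean AF078779_at signal was 117 ± 61.5 (SD, n = 2), against 188 ± 51.7 in controls 3 to 6 (SD, n = 4). On AF078779_g_at it was 69.3 ± 38.9 (SD, n = 2), against 117 ± 14.6 (SD, n = 4). Control 1 was the lowest control on both probe sets, at 73.8 and 41.8. Against controls 3 to 6 alone, the log2 differences on AF078779_at were -2.61 at 12 hours, -1.76 at 1 day, -0.28 at 3 days and -0.17 at 5 days, each ± 0.54. On AF078779_g_at they were -3.36 at 12 hours, -2.63 at 1 day, -0.01 at 3 days and -0.62 at 5 days, each ± 0.43. Against these 4 controls all 3 arrays at 1 day lay below every control on both probe sets.

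Each of the 2 array clusters held arrays with low Nalcn and arrays with higher Nalcn. In a finer split of the whole profiles into 5 clusters, the 6 arrays with the lowest AF078779_at signal were those of 2 clusters, one with the 3 arrays at 12 hours and control 1, the other with arrays 1 and 2 at 1 day and no control. The other 12 arrays formed the other 3 of the 5 clusters, so Nalcn did follow this finer split. Within the split into 2 clusters, arrays 1 and 2 at 1 day belong to cluster 2 and were low, with log2 differences of -2.42 ± 0.62 and -3.14 ± 0.49 on AF078779_at and AF078779_g_at from the 4 controls in the same cluster. Array 3 at 1 day belongs to cluster 1, and lay 0.32 above controls 1 and 2 on AF078779_at and 0.75 on the log2 scale below them on AF078779_g_at (a difference of -0.75). The 12 hours arrays, compared with the 2 controls of cluster 1, differed by -1.86 ± 0.65 on AF078779_at and by -2.49 ± 0.52 on AF078779_g_at. Against control 1 alone, the control nearest to them in whole profile, AF078779_at was 2.45-fold lower and AF078779_g_at at least 3.7-fold lower. At 3 days the difference on AF078779_at was 0.30 ± 0.87 in cluster 1 (1 array) and -0.20 ± 0.62 in cluster 2 (2 arrays), and on AF078779_g_at 0.31 ± 0.70 and 0.26 ± 0.49. The 5 days arrays, all in cluster 2, differed from its 4 controls by -0.17 ± 0.54 on AF078779_at and -0.62 ± 0.43 on AF078779_g_at. With the 2 clusters as a block in the fit, the differences at 3 days and 5 days were -0.03 and 0.09 on AF078779_at and 0.28 and -0.42 on AF078779_g_at. In that fit the differences at 12 hours and 1 day were -2.39 and -1.51 on AF078779_at and -2.90 and -2.34 on AF078779_g_at.

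**Figure D2:**
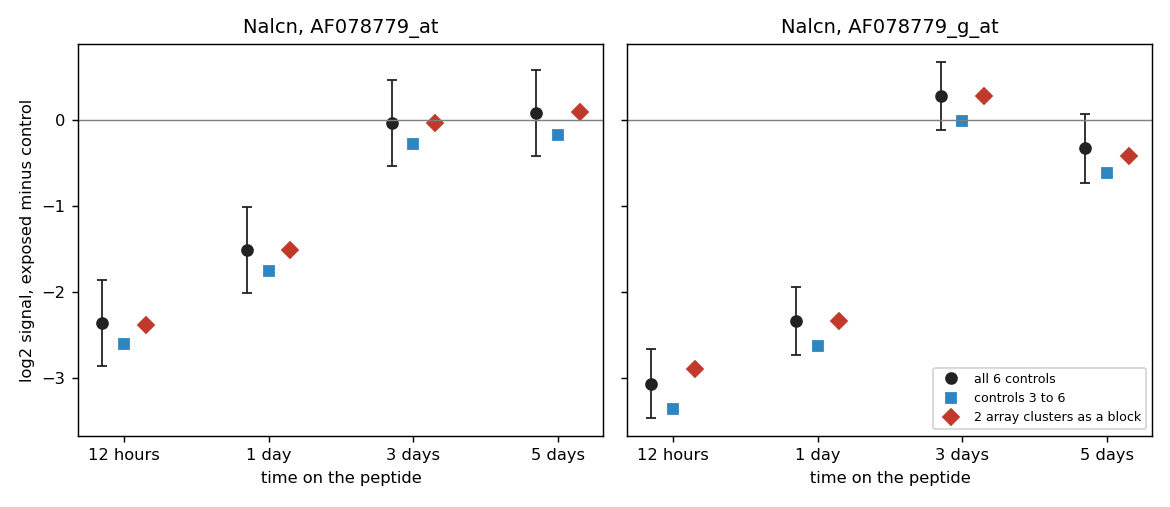
Log2 signal of Nalcn, exposed minus control, at each time against all 6 controls (black, bars are SE), against controls 3 to 6 (blue) and with the 2 array clusters as a block (red). The 3 settings stay well below 0 at 12 hours and 1 day, between -1.51 and -3.36, and lie between -0.62 and 0.28 at 3 and 5 days.

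The 2 probe sets moved together over the arrays. Their log2 signals correlated with Pearson's r of 0.90 and Spearman's rho of 0.88 over 18 arrays. After each group's mean was taken out, the correlation of what remained was 0.72, so the high and low arrays within a group were largely shared. They are 2 readings of the same RNA on the same arrays, which these values reflect.

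Other genes with a pattern over the arrays like that of Nalcn were named by correlation with AF078779_at, over 18 arrays, among 924 other probe sets with 1 gene symbol. The arrays fell into 2 clumps in these plots: 6 arrays with a Nalcn signal of 18.9 to 73.8 (the 3 at 12 hours, arrays 1 and 2 at 1 day, and control 1) and 12 arrays with 130.5 to 263.5. The r values thus describe mainly this split, and no p is given. Over all probe sets compared, the median r was 0.10 and the 10th to 90th percentile ran between -0.48 and 0.56, with 28 probe sets above 0.7 and 21 under -0.7.

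The highest correlation was that of Igfbp2, a secreted protein that binds insulin-like growth factors. Its probe set M91595exon_s_at reached an r of 0.88 with either Nalcn probe set, and its other probe set, J04486_at, 0.82 with AF078779_at. On M91595exon_s_at the 6 arrays with low Nalcn had signals of 5678.6 to 6891.7, and the other 12 had 11445.3 to 21437.3. The array at 1 day with Nalcn near the controls, array 3, had 16527.6, against 6081.4 and 6462.3 in arrays 1 and 2 at 1 day. Control 1 had 6721.8, against 16390 to 19649.1 in the other 5 controls. On M91595exon_s_at the r was 0.35 within the 12 arrays and 0.47 within the 6 arrays. On J04486_at it was 0.19 and 0.02.

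A further 3 probe sets completed the 5 highest. Nr4a3, an orphan nuclear receptor induced early by many stimuli, had an r of 0.82 on X86003_at, but its other 2 probe sets had -0.07 and -0.80. With AF078779_g_at the r of X86003_at was 0.64. With AF078779_at it was -0.33 within the 12 arrays with higher Nalcn and 0.83 within the 6 with low Nalcn. Chrnb4, a subunit of nicotinic acetylcholine receptors, had an r of 0.80 on U42976_at and -0.18 on its other probe set. On U42976_at Chrnb4 had signals of 162.2, 164.1 and 167.8 at 12 hours, against 205.4 to 415.5 in the controls. Camk2b, a subunit of the calcium- and calmodulin-dependent kinase II, had an r of 0.78 with either Nalcn probe set, and signals of 218.6 to 282.3 at 12 hours, against 306.1 to 404.4 in the controls. Within the 12 arrays the r was 0.21 for Chrnb4 on U42976_at and 0.28 for Camk2b, and within the 6 arrays 0.41 and 0.48. With AF078779_g_at as the guide, 2 of these 5 probe sets were again among the 5 highest, and 4 were among the 20 highest.

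The most opposite patterns were those of Hspd1, Dusp5 and Mif. Hspd1, a mitochondrial chaperone, had an r of -0.86 with AF078779_at and -0.89 with AF078779_g_at. Its signals were 8239.6, 8225.9 and 8704.4 at 12 hours, against 6122.9, 6338.6, 4579.4, 4370.7, 4482.8 and 3996.3 in controls 1 to 6. Every array at 12 hours lay above every control, and controls 1 and 2 were the highest controls. Dusp5, a phosphatase of ERK kinases, had an r of -0.84, with signals of 1703.1 to 3131.4 on the 6 arrays with low Nalcn and 224.4 to 615.2 on the other 12. Mif, a secreted cytokine, had an r of -0.83 on S73424_s_at and -0.50 on its other probe set. For all 3 the r within the 12 arrays was between -0.36 and -0.11. Within the 6 arrays with low Nalcn it was -0.71 for Hspd1, -0.35 for Mif and 0.48 for Dusp5, the last against the direction over all arrays.

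**Figure D3:**
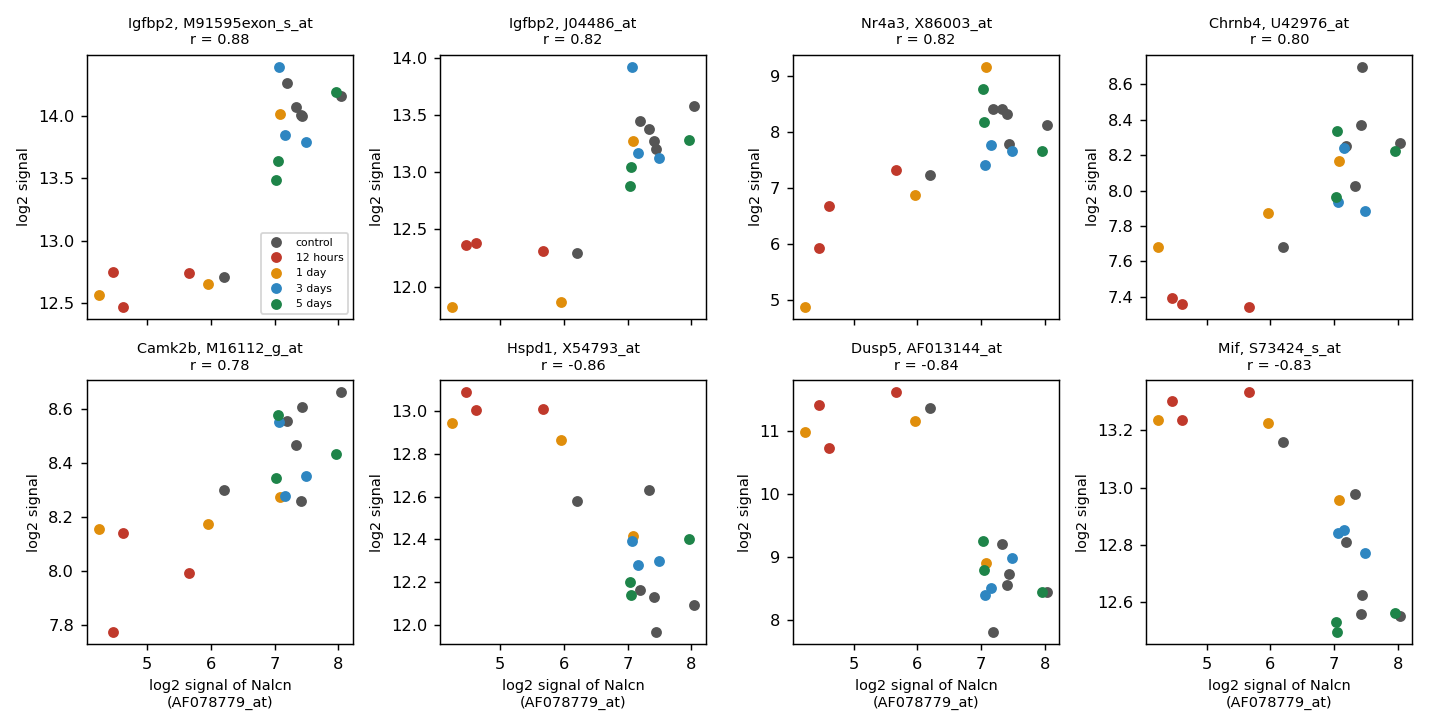
Log2 signal of the 5 probe sets most like Nalcn and the 3 most opposite, against log2 signal of Nalcn on AF078779_at, 1 point per array (18 arrays), coloured by group. The arrays form 2 clumps, with the 12 hours arrays, 2 arrays at 1 day and 1 control at low Nalcn.

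No value can be given for the partners of the channel, since Unc79, Unc80, Nalf1 and Nalf2 were paired with no probe set in the annotation used here. Against control at 12 hours, limma called 1.66% of the 1027 probe sets at an adjusted p under 0.05 (Benjamini-Hochberg over all of them), 8 higher and 9 lower, and at 1 day it called 0.292%. At 3 days and 5 days it called 0% of them, where 47 and 94 probe sets had an unadjusted p under 0.05. The median log2 difference of all probe sets was -0.18 at 12 hours and -0.05 at 1 day.

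A set of 6 lists of related genes was read beside Nalcn: receptors and Src kinases that act on the channel, the 4-domain sodium and calcium channel pores, their auxiliary subunits, other sodium-permeable channels, leak and inward-rectifier potassium channels, and sodium pumps and exchangers. They gave 78 tested probe sets of 51 genes. Of these, limma called 0 at any of the 4 times. At 12 hours 25 of them (32.1%) had an unadjusted p under 0.05, against 29.3% of all tested probe sets. The median log2 difference was -0.37 for the lists and -0.18 for all probe sets, with 73.1% and 60% of probe sets below 0. The share with an unadjusted p under 0.05 was 10.3% of the lists at 1 day (8 probe sets) and 11.7% of all probe sets. It was 3.85% (3 probe sets) and 4.58% at 3 days, and 10.3% (8 probe sets) and 9.15% at 5 days. At 1 day the medians were -0.07 and -0.05, at 3 days 0.02 and 0.02, and at 5 days -0.19 and -0.14. Without control 1, limma called 16 of the 78 at 12 hours and 211 of all probe sets, and in 12 of the 18 fits with an array left out only 1 or 2 of all probe sets were called at 12 hours.

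Among the receptors and kinases that act on NALCN, 6 of 10 genes were on the array and 4 were tested, on 11 probe sets. Fyn, a Src family kinase, had the smallest adjusted p of the list. Its signals were 385.1, 424.5 and 324.1 at 12 hours, against 393, 614.3, 904, 1414.6, 1147.1 and 1167.8 in controls 1 to 6. The log2 difference was -1.20 ± 0.32 with an adjusted p of 0.0678 (limma), and -0.70 with the clusters as a block. Controls 1 and 2 were the lowest controls, and only control 1 overlapped the 12 hours arrays.

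The GABA-B receptor subunit Gabbr1 was read by 5 probe sets that disagreed. At 12 hours AB016160_g_at differed by -1.32 ± 0.39 (adjusted p 0.0881, limma), AB016160_at by -0.82, and rc_AA926213_g_at by -0.23, while AB016161cds_i_at and AB016161cds_r_at differed by 0.21 and 0.36. AB016160_g_at had 59.6 to 158 on the arrays of cluster 1 and 159.9 to 393.4 in cluster 2. With the clusters as a block it differed by -0.70 (adjusted p 0.238, limma), and AB016160_at by -0.37. The other subunit, Gabbr2, ran between -0.79 and 0.97 on 3 probe sets. The 0.97 was that of AF058795_at, which had 183.8 to 697.8 on the arrays of cluster 1 and 24 to 141.9 in cluster 2, and turned to -0.61 with the clusters as a block. Chrm3, the M3 muscarinic receptor, had signals of 138.9 to 150.3 at 12 hours, against 152.7 to 240.6 in the controls on M16407_at. All 3 lay below every control, with a log2 difference of -0.48 ± 0.19 and an adjusted p of 0.124 (limma). On its other probe set, AB017656_s_at, the ranges overlapped, with 26.9 to 52.4 at 12 hours, against 32 to 75.1 in the controls, and a difference of -0.14 (0.08 in the fit with the cluster block).

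The 4-domain pores are the closest relatives of NALCN in structure. Of 20 such genes 16 were on the array, and 14 were tested on 22 probe sets. At 12 hours their log2 differences ran between -2.09 and 1.14 with a median of -0.34, and 16 of 22 were below 0. Cacna1d, an L-type calcium channel pore, had signals of 21.9, 27.9 and 8.5 at 12 hours on D38101_s_at, against 42.2 to 68 in the controls. The groups did not overlap, and the difference was -1.46 ± 0.37 with an adjusted p of 0.0596 (limma). Scn7a, a sodium-sensing channel of glia on S75991_at, differed by -1.89 ± 0.71 (adjusted p 0.114, limma). Its signal was 183.3 to 262.4 on all 7 arrays of cluster 1 and 343.1 to 2697.3 in cluster 2, so it moved with the clusters. Its other probe set, rc_AA925248_at, differed by -2.09 ± 1.42. Scn11a had a difference of 1.14 ± 0.54 (adjusted p 0.177, limma), and Cacna1c, another L-type pore, 0.80 ± 0.54 on M59786_at (adjusted p 0.322, limma). That probe set had 547.7 to 1053.7 on all arrays of cluster 1 and 111.9 to 398.8 in cluster 2, and its difference turned to -0.27 with the clusters as a block. Its other 2 tested probe sets differed by -0.44 and 0.31.

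Among the auxiliary subunits, 6 of 20 genes were on the array. Cacna2d1, the alpha2delta-1 subunit of calcium channels, followed the array clusters more closely than the groups. Its signal was 4.3 to 19.3 on the 7 arrays of cluster 1 and 282.7 to 1475.8 on the 11 arrays of cluster 2. All 3 arrays at 12 hours were under the floor, with a difference of -4.69 ± 1.73 on the floored scale and an adjusted p of 0.114 (limma). The difference at 12 hours was -0.81 once the clusters were a block. Arrays 1 and 2 at 1 day had 365 and 282.7, below the 956.6 to 1475.8 of the 4 controls in the same cluster, and with the clusters as a block Cacna2d1 differed by -1.47 at 1 day (adjusted p 0.0172, limma), against -1.47 with an adjusted p of 0.845 without the block. Cacng1 differed by -0.61, Cacnb3 by 0.06 (-0.15 with the block) and Scn2b by 0.10 at 12 hours.

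Of the other sodium-permeable channels, 16 probe sets of 12 genes were tested. Cngb1, a subunit of cyclic nucleotide-gated channels, had signals of 610.7, 678.5 and 659.8 at 12 hours on AJ224680_g_at, against 774.1 to 1170.7 in the controls. The groups did not overlap, and the difference was -0.56 ± 0.16 with an adjusted p of 0.0781 (limma). Its correlation with Nalcn over 18 arrays was 0.72 with AF078779_at and 0.82 with AF078779_g_at, beside 0.77 and 0.78 for Fyn. Its other probe set, AF015728_s_at, differed by -0.67 and had an r of 0.25 with AF078779_at. P2rx1, an ATP-gated channel, differed by -1.25 ± 0.44 (adjusted p 0.111, limma) and P2rx3 by 0.06. The 3 probe sets of P2rx2 disagreed, with 0.16 on AF028603_s_at, -0.44 on AF020756_s_at and -0.77 on U14414_at.

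The potassium leak and inward-rectifier channels, which set the resting potential that a sodium leak shifts, gave 14 tested probe sets of 10 genes with a median difference of -0.45 at 12 hours. Kcnj1 differed by -0.68 on S78154_at (adjusted p 0.109, limma), -0.67 on AF081366_s_at and 0.02 on AF081365_s_at, and Kcnk1, a 2-pore leak channel, by -0.75 (adjusted p 0.11, limma). Kcnj14 differed by 0.59 and Kcnj5 by 0.15. Among the sodium pumps and exchangers, with 9 probe sets of 5 genes, the pump subunit Atp1b2 differed by -2.07 ± 0.75 on D90048exon_g_at and Atp1b3 by 0.59 ± 0.21 on rc_AA943304_g_at (adjusted p 0.111 each, limma). With the clusters as a block these differences were -1.09 for Atp1b2 and 0.58 for Atp1b3. Their other probe sets differed by -0.89 for Atp1b2 and 0.24 for Atp1b3. The sodium-calcium exchanger Slc8a2 differed by -0.39 and the pump subunit Atp1b1 by 0.46 and 0.36 on 2 probe sets.

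**Figure D4:**
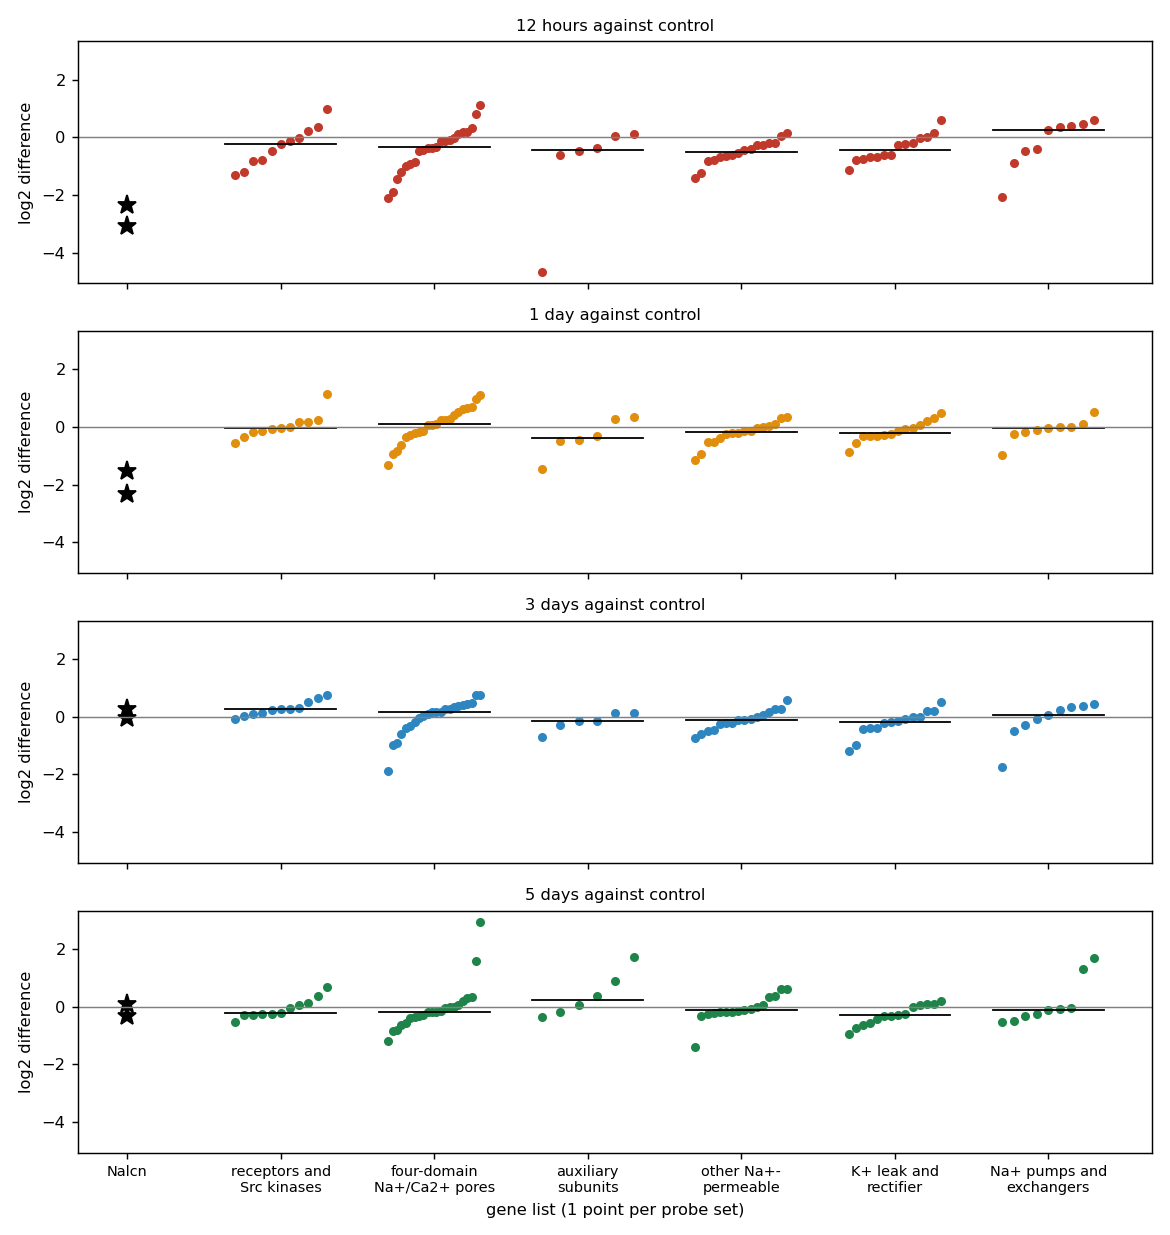
Log2 difference, exposed minus control, of every tested probe set in 6 lists of related genes at each time (points), with the median of each list (line) and both Nalcn probe sets (stars). At 12 hours the stars lie at -2.36 and -3.07, and the list medians between -0.50 and 0.24. Single list members reach lower than the medians, down to -4.69 for Cacna2d1.

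Between the times themselves, limma called 16.5% of the 1027 probe sets at 5 days against 12 hours and 2.24% at 3 days against 12 hours. All arrays at 12 hours are in cluster 1 and all at 5 days in cluster 2. With the clusters as a block, 0 probe sets were called at 5 days against 12 hours by limma, and 152 had an unadjusted p under 0.05. At 3 days against 12 hours 26 were called with the block and 23 without it.

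Markers of the cells in the dishes were read beside these values. Of 16 astrocyte marker genes 8 were on the array, Gfap and Aqp4 not among them, and 0 of the 8 lay at the floor on all arrays. Their summed signal was 38558 to 39897 at 12 hours, against 24072 to 38021 in the controls, and had an r of -0.27 with Nalcn on AF078779_at over 18 arrays. Bright genes weigh most in this sum, with Vim at 8770.4 to 18831 over the arrays and Mt3, for one, at 91.9 to 4629.4. The 18 tested probe sets of these 8 genes ran between -1.69 and 1.41 at 12 hours, with a median of 0.14. Of them 7 were below 0 and 1 was called. At 12 hours the astrocyte enzyme Glul, which makes glutamine, rose on rc_AI012265_i_at, with signals of 608.5 to 709.8, against 242.2 to 504.6 in the controls, and a log2 difference of 0.92 ± 0.21 (adjusted p 0.0439, limma). With the clusters as a block its difference was 0.94 with an adjusted p of 0.0944 (limma). Its other 3 probe sets differed by 0.63 to 0.95 and were not called. The glutamate transporter Slc1a3 differed by -1.25, -1.69, -1.45 and 0.02 on 4 probe sets, of which none was called. At 1 day the other glutamate transporter, Slc1a2, rose on rc_AI044517_g_at, with signals of 79.5 to 152.8, against 18.2 to 45.8 in the controls, and a difference of 1.88 ± 0.31 (adjusted p 0.0151, limma). Its other 2 probe sets were not called at 1 day, with 1.21 on rc_AI044517_at and 0.13 on U15098_at (adjusted p 0.389 and 0.946, limma). With each of the 18 arrays left out in turn, the call of Glul was kept in 4 fits and that of Slc1a2 in 16, all but those without array 1 or array 2 at 1 day.

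Of 20 neuron marker genes 11 were on the array, and 0 of the 11 lay at the floor on all arrays. No detection calls were used, so whether the cultures held neurons was not tested. The summed signal of these genes was 3806.1 to 4037 at 12 hours, 5226.8 to 5634 at 1 day, 4285.4 to 6274.8 at 3 days and 5540.1 to 5921.8 at 5 days, and 3872.8 to 7132.7 in the controls. The sum was thus lowest at 12 hours, overlapping the controls, and had an r of 0.50 with Nalcn on AF078779_at. At 1 day, 3 days and 5 days the sum lay inside the control range. Eno2 was its largest part, with signals of 2122.9 to 3833.6 over the arrays. Of the 20 tested probe sets of these genes 16 were below 0 at 12 hours, with a median of -0.27, and 1 was called. Over all tested probe sets 60% were below 0, with a median of -0.18. The median r of the 20 with Nalcn on AF078779_at was 0.24, against 0.10 over all probe sets compared. Syn1, a synaptic vesicle protein, fell at 12 hours, with signals of 189.7 to 226.8, against 245.8 to 406.3 in the controls, and a log2 difference of -0.71 ± 0.17 (adjusted p 0.0475, limma). Its call was kept in 2 of the 18 fits with an array left out, those without control 1 or control 2, and with the clusters as a block its difference was -0.62 with an adjusted p of 0.127 (limma). The neurofilament gene Nefh on rc_AA818677_at had the lowest r of the 20 with Nalcn, -0.81. Its signals were 134 to 138.5 at 12 hours, against 6.2 to 166.5 in the controls. The other Nefh probe set, X13804cds_at, had an r of 0.25 and differed by -0.17 at 12 hours. The part of neurons in the Nalcn difference was not tested.

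Markers of other cells were few. Of the oligodendrocyte lineage 6 of 12 genes were on the array, with a summed signal of 1628 to 1821.6 at 12 hours, against 1104.9 to 1926.5 in the controls. None of its 9 tested probe sets was called at 12 hours by limma, and 2 had an unadjusted p under 0.05. Of the 9, 4 were below 0 at 12 hours, with a median of 0.10. Cnp had the highest r of the list with Nalcn on AF078779_at, 0.50. Among the others Mag differed by -0.39 on X06554cds_s_at, Mog by -0.41, Mbp by 0.10 and Pdgfra by 0.61 to 1.37 on 4 probe sets. The 1.37 was that of AA944099_s_at, which differed by 0.42 with the clusters as a block. For microglia 1 gene, Itgam, was on the array, with signals of 32.1 to 40.1 at 12 hours, against 37.3 to 65.8 in the controls. For fibroblast, meningeal and vascular cells, Igf2 and Pdgfrb summed to 3562.4 to 3748.6 at 12 hours, against 644.1 to 8633.3 in the controls. Igf2 on X17012mRNA_s_at had 3282.5 to 8743.8 on all arrays of cluster 1 and 211.2 to 645.3 in cluster 2, so this probe set split by cluster as Cacna2d1 did. Its difference at 12 hours was 2.14 (adjusted p 0.239, limma), and turned to -0.55 with the clusters as a block. The Igf2 probe sets disagreed. M17960_at showed no such split, with 124.7 to 217.6 in cluster 1 and 135.5 to 221.7 in cluster 2. It differed by -0.37 at 12 hours (adjusted p 0.196, limma). The part of these cells in the Nalcn difference was not tested.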

How the data were processed

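The deposited table holds linear intensity values of 1322 probe sets on 18 arrays. From the values, the authors had already scaled the intensity between arrays. The software behind the values and the genome build were not given in the sources used here, and no detection calls were used. No column was left unmapped to a sample. The number of arrays per group limits the precision.

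The 59 array control probe sets were left out, lower values were raised to 11.3 (the 10th percentile) before taking log2. Probe sets above 44.9 (30th percentile) on at least 3 arrays were kept. Gene symbols came from the platform annotation: of 1263 probe sets 1137 had 1 symbol, 8 several and 118 none, and 1132 matched the RefSeq gene table by gene identifier, with 0 symbols changed. All 18 arrays were fitted in 1 model of 5 groups with limma 3.58.1 on R 4.3.3 (lmFit, eBayes), two-sided, with p-values adjusted by Benjamini-Hochberg over the 1027 probe sets of each comparison and a threshold of 0.05.

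The gene, the lists and the tests were chosen with earlier results of these data known. Named were Nalcn, the 5 probe sets most and the 3 least correlated with AF078779_at, up to 4 called members of each list or, where none was called, the 2 smallest p-values in each direction at 12 hours, and all measured members of the receptor and kinase list. Nefh, Slc1a3, Igf2 across clusters, further probe sets of named genes and the values within the 2 clumps of arrays were added after their values were seen. Alternatives were the scaling, floor, filter, cluster and replicate blocks, and arrays left out.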

Additional observations from a re-analysis of the deposited data

Results flagged for a closer look

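Control 3 stood apart for Gabbr1 on AB016161cds_i_at, at 244.6, against 124.6 to 159.3 in the other 5 controls (a gap to the nearest control above the 95% critical value of Dixon's test for 6 arrays). Control 4 stood apart for P2rx1, at 19.4, against 43.8 to 62.4. Of 42 probe sets examined 2 were marked in this way, and chance marks about 1 in 20. Nalcn and the genes picked for their likeness to it were not examined in this way.

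Several genes named in the text differed between times by limma, with p-values adjusted over all 1027 probe sets. These genes were named for their p-values at 12 hours against control. A difference from the same 12 hours arrays is thus in part set by that choice, and the p-values are no independent support. Over all probe sets, limma called 16.5% at 5 days against 12 hours and 2.24% at 3 days against 12 hours. At 5 days against 12 hours, log2 signal was higher by 1.87 for Fyn (adjusted p 0.0127), 1.68 for Gabbr1 on AB016160_g_at (0.0314), 1.30 for Cacna1d (0.0496), 3.47 for Scn7a on S75991_at (0.0259) and 0.66 for Syn1 (0.0424). Atp1b2 was higher by 3.77 (adjusted p 0.0234), and Cacna2d1 by 6.39 (0.0448), a bound, since its 12 hours arrays were under the floor. Cacna1c on M59786_at differed by -2.0 (adjusted p 0.0448) and Glul by -0.84 (0.0409). At 3 days against 12 hours, Cacna1d was higher by 1.72 (adjusted p 0.0496) and Glul differed by -1.15 (0.0255). With the 2 array clusters as a block, Glul at 3 days kept its call at -1.16 (adjusted p 0.0394, limma), and none of the others was called, with adjusted p between 0.0936 and 0.674. Their log2 differences in that fit were -0.87 for Glul at 5 days, 0.53 for Syn1, 1.43 for Cacna1d at 3 days and 0.88 at 5 days, 1.12 for Fyn, 0.75 for Gabbr1, 1.64 for Scn7a and 2.31 for Atp1b2. They were 0.58 for Cacna2d1 and -0.40 for Cacna1c.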

How the results depend on the processing

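Nalcn lay below control in all 52 alternatives run at 12 hours and in all 52 at 1 day, over both probe sets, and below control in 19 of 52 at 3 days and 28 of 52 at 5 days. Nalcn was chosen for a low signal at 12 hours and 1 day in these same arrays. The alternatives share most of their data and count both probe sets of the gene. The tally at 12 hours and 1 day is therefore no independent support. With the floor at the 20th percentile AF078779_g_at differed by -1.96 at 12 hours, which the floor itself sets. With 1 array left out at a time, AF078779_at differed by -2.73 to -2.13 at 12 hours, -2.17 to -0.75 at 1 day, -0.24 to 0.12 at 3 days and -0.23 to 0.23 at 5 days. AF078779_g_at differed by -3.31 to -2.97 at 12 hours, -2.85 to -2.01 at 1 day, 0.04 to 0.55 at 3 days and -0.66 to -0.15 at 5 days.

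The counts of called probe sets depended on single arrays. With 1 array left out they ran between 1 and 211 at 12 hours (211 without control 1, 31 without control 2), 0 and 26 at 1 day (26 without array 3 at 1 day), 0 and 3 at 3 days, and 0 and 2 at 5 days. For the 6 related lists they ran between 0 and 16 at 12 hours and 0 and 1 at 1 day and 3 days, and stayed at 0 at 5 days. Without controls 1 and 2, 321 probe sets were called at 12 hours and 59 at 1 day, of which 20 and 2 in the lists. Without array 3 at 1 day and array 3 at 3 days, chosen after seeing the data, the counts were 30, 38 and 5 at 12 hours, 1 day and 3 days, with 1, 2 and 1 in the lists. With the clusters as a block they were 3 at 12 hours and 30 at 1 day, with 1 in the lists at 1 day. With no filter 27 were called at 12 hours, 1 of them in the lists. Quantile normalization gave 8 at 12 hours (7 higher, 1 lower) and 2 at 5 days. Centring on the median gave 2 at 5 days and 9 higher and 5 lower at 12 hours, against 8 and 9 as deposited, with the median of all differences at -0.03 and 0.00 in these scalings. The floor at the 20th percentile gave 1 at 1 day, 1 at 5 days and 1 in the lists at 12 hours. The causes were not tested.

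The labels share replicate numbers between groups but do not say that the numbers pair arrays. In 1 of 10 pairs of groups all 3 same-numbered correlations of deviations from group means were above 0.1. This was 3 days with 1 day, at 0.39, 0.43 and 0.68 for arrays 1, 2 and 3. The SE of the Nalcn step between these 2 times takes no pairing into account. With the replicate block 3 probe sets were called at 12 hours, 1 at 1 day and 61 at 5 days, 8 of them in the lists at 5 days. By Spearman's rho 2 of the 5 probe sets most like Nalcn were shared, and by deviations from cluster means 3. Signals near the floor of 11.3 limit AF078779_g_at at 12 hours to a bound. With 3 arrays per time, changes near the standard error, and some larger ones, could not be told from no change.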
